A study of Mus musculus with 6 samples.

Results

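The genes described here are 10 direct effectors of Notch signaling, chosen by symbol: the transcriptional repressors Hes1, Hes5, Hes6, Hey1, Hey2 and Heyl, the feedback regulators Nrarp and Dtx1, the DNA-binding factor Rbpj and the co-activator Maml2. All 10 were found among the 55076 rows of the expression tables, each in a single row, and 6 of them passed the filter of a mean of at least 1 FPKM over all mice. FPKM counts the sequenced fragments of a gene relative to its length and to a library size, which here differed from the recovered reads as given below. The samples were the whole anterior prostate (AP) of 6 males aged 20 weeks, 3 in the OEx group and 3 in the Ctrl group, with a bulk RNA library for each. OEx mice carried Pbsn-Cre and 1 copy of a Rosa26 allele from which Cre releases the Notch1 intracellular domain (N1ICD). Ctrl mice carried the same Rosa26 N1ICD allele without Cre, although the sample labels give their genotype as wild type. The Pbsn promoter drives Cre in prostatic epithelial cells, so the transgene marks the epithelium while the RNA came from all cells of the lobe. In such bulk RNA, fewer cells of a type and less RNA per cell cannot be told apart.

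In canonical Notch signaling, a ligand on a neighbouring cell triggers the cleavage of the receptor, and the freed intracellular domain enters the nucleus. There it binds RBPJ, which otherwise holds target genes silent together with co-repressors, and recruits Mastermind-like proteins such as MAML2 and histone acetyltransferases. The best known targets are the Hes and Hey genes, whose basic helix-loop-helix proteins repress transcription in turn, and genes such as Nrarp, whose product limits the signal by acting on the intracellular domain complex. In the prostate, Notch signaling is known for its part in epithelial differentiation and in the balance of basal and luminal cells.

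The 10 genes were placed on the GRCm38 build, whose GENCODE gene models returned whole reads for the deposited values. Hes1 lies on chromosome 16 from 30064384 to 30067796, Hes5 on chromosome 4 from 154960923 to 154962371, Hes6 on chromosome 1 from 91411483 to 91414038, Hey1 on chromosome 3 from 8663359 to 8667256, Hey2 on chromosome 10 from 30832359 to 30842801, and Heyl on chromosome 4 from 123233556 to 123249875. Nrarp, with a single exon, lies on chromosome 2 from 25180758 to 25183339, Dtx1 on chromosome 5 from 120680202 to 120711927, Rbpj on the same chromosome from 53466152 to 53657362 and Maml2 on chromosome 9 from 13297957 to 13709388. Exons of the antisense gene Gm38287 cover 79.4% of the Nrarp exon, and those of the antisense gene Gm20421 cover 31.8% of the Hes5 exons. Gm38287 was listed at 0 in all mice and Gm20421 had at most 2 reads. Whether the counting used the strand of the reads is not given in the sources used here, and for both genes reads of the overlap cannot be assigned with certainty.

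The letters to which RBPJ binds, GTGGGAA with the core TGGGAA, were searched on both strands in the 250 bases before each RefSeq start of a member, as far as RefSeq promoters of GRCm38.p6 were given. This was the case for 7 of the 10 genes, and Hes1, Hey1 and Heyl were not among them. Among these 7, GTGGGAA or its complement TTCCCAC was found before Hes5 and Hey2 only, with 2 places before Hes5 that lie on opposite strands and begin 226 and 83 bases before the start. Of all 32851 promoters of this length, 5.42% held GTGGGAA and 21.6% held the core, which every GTGGGAA contains. Hes6, Rbpj and Maml2 each had a window for a second start. The core alone was found in the Rbpj windows and before the second start of Maml2. The Rbpj windows begin at 53590096 and 53590236, within the gene model given above. Nrarp, Hes6 and Dtx1 held neither in this window. The windows below are written 5′ to 3′ on the strand of the gene with matches to the motif or its core in capitals. They show the members with the long motif, the strongly higher Nrarp and the lower Hes6. For Hes6 the window shown belongs to a start within the gene model given above. The window before that gene model, from 91414039 to 91414288, is not shown. A match is no proof of binding, and these windows cover only a small part of the regulatory DNA of a gene.
Hes5, chr4:154960673-154960922, plus strand: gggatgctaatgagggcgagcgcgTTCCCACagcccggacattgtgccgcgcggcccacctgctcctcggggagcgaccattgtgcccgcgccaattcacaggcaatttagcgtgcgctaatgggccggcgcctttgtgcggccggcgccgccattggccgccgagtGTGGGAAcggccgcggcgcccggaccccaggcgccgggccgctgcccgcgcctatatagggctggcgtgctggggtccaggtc
Hey2, chr10:30842784-30843033, minus strand: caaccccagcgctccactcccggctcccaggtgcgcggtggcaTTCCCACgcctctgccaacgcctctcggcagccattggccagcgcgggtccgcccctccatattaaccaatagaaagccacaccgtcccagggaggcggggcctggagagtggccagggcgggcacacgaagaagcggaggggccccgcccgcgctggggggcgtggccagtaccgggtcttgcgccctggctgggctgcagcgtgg
Nrarp, chr2:25180508-25180757, plus strand: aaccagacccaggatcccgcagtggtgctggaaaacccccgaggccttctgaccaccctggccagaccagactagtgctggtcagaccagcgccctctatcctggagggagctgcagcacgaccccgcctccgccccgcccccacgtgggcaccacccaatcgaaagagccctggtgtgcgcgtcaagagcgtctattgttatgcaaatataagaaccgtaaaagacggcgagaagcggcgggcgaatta
Hes6, chr1:91413223-91413472, minus strand: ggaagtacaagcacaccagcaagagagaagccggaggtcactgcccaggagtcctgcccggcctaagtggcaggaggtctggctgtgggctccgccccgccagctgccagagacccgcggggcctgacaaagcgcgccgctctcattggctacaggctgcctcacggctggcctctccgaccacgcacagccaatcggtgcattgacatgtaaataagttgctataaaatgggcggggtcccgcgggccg
The N box CACNAG, to which Hes proteins bind, was found in 36.7% of all windows. It occurred in 2 places before Nrarp, and in 1 place each in the Hes6 window shown, before Dtx1 and before the first start of Maml2. It was not found before Hes5, Hey2 or Rbpj, nor in the Hes6 window that is not shown.

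Between 14772005 and 18655462 reads per mouse were recovered from the FPKM values. The library size that these values imply was 1.34, 1.34 and 1.22 times the recovered reads in OEx mice. In Ctrl mice it was 0.726, 0.730 and 0.815 times. The deposited values thus hold a scaling that differs between the groups, and its basis is not given in the sources used here. In both groups replicate 3 stood apart from replicates 1 and 2. The chi-square per degree of freedom between replicates 1 and 2 was 3.67 in OEx and 2.93 in Ctrl mice, more than counting noise alone gives, and 50.4 to 86.7 for pairs with replicate 3. Ctrl replicate 3 carried seminal vesicle transcripts, with a summed level of 16128 FPKM over 6 marker genes against at most 4.36 FPKM in any other mouse. The labelled tissue was checked by its markers. The 5 luminal markers summed to 1626 to 2063 FPKM in OEx and 1971 to 2279 FPKM in Ctrl mice, and 3 prostate genes to 2247 to 5012 and 15205 to 19183 FPKM. Of the luminal markers, Krt18 was called lower in OEx mice by the test described below, with a log2 fold change of -1.49, while Cdh1 was at 0.63. Of the prostate genes, Pbsn, whose promoter drives Cre, and Hoxb13 were called lower as well. The 4 basal markers were all called lower in OEx mice, where 15.7% of all rows were. Their summed level was 6.79 to 15.9 FPKM in OEx mice against 212 to 249 FPKM in Ctrl mice. The gene of the transgene, Notch1, was measured at 41.9, 47.6 and 78.9 FPKM in OEx and at 5.18, 5.55 and 3.34 FPKM in Ctrl mice, without a separation of transgene and endogenous reads. Nothing in the labels says whether the mice were littermates, and p-values measure the spread between these 6 libraries.

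OEx and Ctrl mice were then compared to see which effectors differed when N1ICD was expressed in the epithelium. Heyl, Nrarp, Hes1 and Hey1 were higher in OEx mice, Hes6 was lower, and Rbpj differed by less than the fold criterion. Genes were called with limma at an FDR under 0.05 over all 12833 rows tested and a fold change over 2. Of the 6 members tested, 4 were called higher, where 12.9% of all rows were, and 1 was called lower, where 15.7% of all rows were. At the FDR criterion alone, 5 members were higher (30.7% of all rows) and 1 was lower (36.5% of all rows). The 2 groups did not overlap for any of the 6, with OEx mice higher for 5 (33.4% of all rows) and lower for Hes6 (38.9% of all rows). These shares depend on the scaling between mice: with the deposited FPKM, 1653 rows were called higher and 2021 lower, with FPKM scaled to 4 luminal genes 2133 and 1478, to upper quartiles 2590 and 1178, and to equal library totals 4713 and 479. Heyl and Nrarp had Ctrl means under 1 FPKM and passed the filter through their OEx values, so these counts are a description of the tested members. For a single gene, an exact two-sided permutation test of 3 against 3 mice cannot go below p = 0.1, and this was the value for each of the 6. The limma fit counts all mice as independent, although replicates 1 and 2 were close to each other. With these 2 averaged in each group, an alternative added after the data were seen, 4 members were called higher and 1 lower. The limma FDRs were then 0.00367 for Hes1, 0.00371 for Heyl, 0.00496 for Nrarp, 0.0149 for Hey1, 0.00380 for Hes6 and 0.207 for Rbpj.

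**Figure D1:**
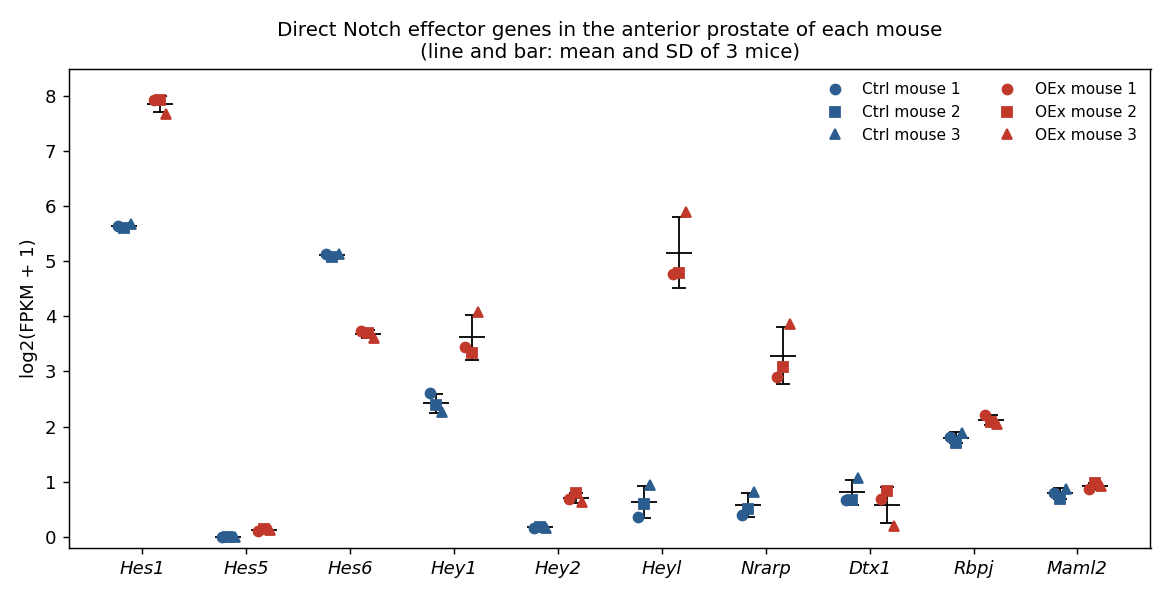
Levels of the 10 effector genes in each mouse as log2(FPKM + 1), with Ctrl mice in blue and OEx mice in red, a symbol for each replicate number, and a line and bar for the mean and SD of 3 mice. Hes1, Heyl, Nrarp and Hey1 are higher in all 3 OEx mice and Hes6 is lower, while Dtx1 and Maml2 overlap between groups.

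Hes1, the founding repressor of the family in mammals and a classical target of N1ICD, was the most abundant member in both groups. It was measured at 243.2, 243.3 and 204.5 FPKM in OEx mice and at 48.8, 47.7 and 50.04 FPKM in Ctrl mice. The lowest OEx mouse was thus far above the highest Ctrl mouse, and the Ctrl mice differed from each other by a factor of only 1.05. The ratio of the mean levels was 4.71. On log2(FPKM + 1) the difference was 2.21 with a standard error of 0.0967 (limma FDR 2.35e-05). With FPKM scaled to equal library totals it was 3.10. Between 7520 and 11334 reads in OEx and between 1243 and 1549 reads in Ctrl mice stood behind these values.

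Heyl encodes a Hey-type repressor that is best known from vascular smooth muscle and other mesenchymal cells. It was measured at 26.3, 26.7 and 58.5 FPKM in OEx mice and at 0.281, 0.514 and 0.914 FPKM in Ctrl mice. Replicate 3 was the highest in both groups, and the groups did not overlap. The ratio of the mean levels was 65.2, with 18 to 71 reads in Ctrl and 2680 to 5401 reads in OEx mice. The log2 fold change was 4.52 with a standard error of 0.327 (limma FDR 6.92e-05), a value that the pseudocount of 1 FPKM holds down, and limma-voom on the recovered reads gave 6.02. Its rank among the 10 genes was 7 in Ctrl and 2 in OEx mice.

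Hey1, a repressor related to Heyl and known from endothelium and heart, changed less. It was measured at 9.89, 9.04 and 16.0 FPKM in OEx mice and at 5.09, 4.23 and 3.81 FPKM in Ctrl mice. The OEx mice lay above the Ctrl mice, with OEx replicate 3 well above the other 2. The ratio of the mean levels was 2.66 and the log2 fold change was 1.20 (95% interval 0.69 to 1.71, limma FDR 0.00251). Without OEx replicate 3 the log2 fold change was 0.97 (limma FDR 0.00152), just under the fold criterion.

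Hey2, the third Hey gene and a regulator of arterial and cardiac development, stayed under the filter. Its levels were 0.600, 0.743 and 0.543 FPKM in OEx mice and 0.122, 0.135 and 0.115 FPKM in Ctrl mice. These values rested on 55, 78 and 45 reads in OEx and on 7, 8 and 8 reads in Ctrl mice, and the groups did not overlap. In a fit of limma-voom over the 20246 rows with at least 10 reads in all mice together, which was added after the data were seen, its log2 fold change was 2.27 (95% interval 1.43 to 3.12, limma FDR 0.00125). On log2(FPKM + 1) without a filter, where the pseudocount exceeds its levels, it was 0.53 (limma FDR 0.00223), under the fold criterion. Hes5, a target known mainly from neural progenitors, had 2, 3 and 2 reads in OEx mice and 0 reads in all Ctrl mice. A count of 3 reads corresponds to 0.0962 to 0.122 FPKM in OEx and to 0.145 to 0.176 FPKM in Ctrl mice for this gene, so both groups were at or under the floor that covers counting error and a difference was not detectable at this depth.

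Hes6 differs from the other Hes genes in that its protein is known to oppose HES1 and to promote differentiation. It was the only tested member below its Ctrl level, at 12.3, 12.0 and 11.2 FPKM in OEx mice and 34.2, 32.9 and 34.2 FPKM in Ctrl mice. Both groups were tight, and the ratio of the Ctrl to the OEx mean was 2.85. The gene fell by 1.44 on the log2 scale with a standard error of 0.0760 (limma FDR 3.12e-05). Scaling to equal library totals moved the median of all rows from -0.08 to 0.69, and there Hes6 was at -0.58 (limma FDR 0.00223). With the 20 highest genes left out of the totals, the median was 0.49 and Hes6 was at -0.81. In both cases it kept its sign and missed the fold criterion. Relative to the median of all rows it was at -1.69 to -1.09 under the alternatives run.

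**Figure D2:**
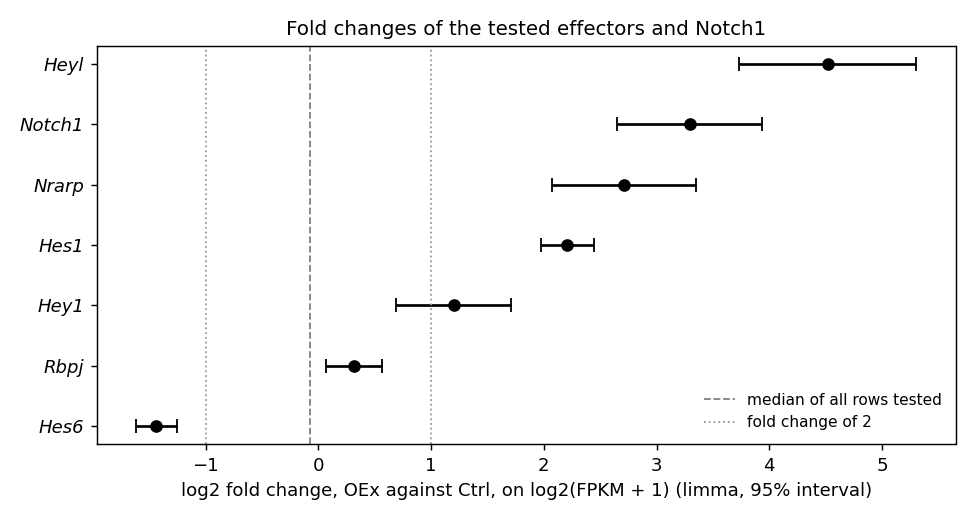
Log2 fold changes of the tested effectors and of Notch1 between OEx and Ctrl mice from limma on log2(FPKM + 1), with 95% intervals (3 mice a group), the median of all rows tested as a dashed line and a fold change of 2 as dotted lines. Heyl lies highest at 4.52, Hes6 lowest at -1.44, and Rbpj at 0.31 lies between the dotted lines.

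Both feedback regulators were measured, and only Nrarp was abundant enough for the test. Nrarp, an ankyrin-repeat protein, was at 6.46, 7.45 and 13.6 FPKM in OEx mice and at 0.310, 0.419 and 0.765 FPKM in Ctrl mice. Replicate 3 was again the highest mouse of each group, and the groups lay far apart. The ratio of the mean levels was 18.4, from 10 to 30 reads in Ctrl and 333 to 635 reads in OEx mice, and the log2 fold change was 2.71 with a standard error of 0.268 (limma FDR 1.99e-04). Dtx1, an E3 ubiquitin ligase of the Deltex family and a target of Notch in lymphocytes, was at 0.609, 0.772 and 0.147 FPKM in OEx mice and at 0.592, 0.586 and 1.10 FPKM in Ctrl mice. Its groups overlapped, and OEx replicate 3 was the lowest mouse with 14 reads. In the limma-voom fit on low counts its log2 fold change was -0.77 with a 95% interval from -2.15 to 0.60 (limma FDR 0.296). The interval includes 0 and lower levels beyond the fold criterion, while its upper end stays under that criterion.

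The nuclear partners of N1ICD were measured with smaller differences. Rbpj was at 3.64, 3.24 and 3.11 FPKM in OEx mice and at 2.51, 2.25 and 2.69 FPKM in Ctrl mice. The groups did not overlap, and the log2 fold change of 0.31 (95% interval 0.07 to 0.56, limma FDR 0.0320) was under the fold criterion. Its limma FDR was above 0.05 in 4 of the 6 fits that left out 1 mouse, with values from 0.0252 to 0.126. With replicates 1 and 2 of each group averaged it was 0.207. Maml2 was at 0.821, 0.968 and 0.890 FPKM in OEx mice and at 0.739, 0.609 and 0.828 FPKM in Ctrl mice, with an overlap between the lowest OEx and the highest Ctrl mouse. The limma-voom fit gave a log2 fold change of 0.30 with a 95% interval from -0.18 to 0.78 (limma FDR 0.251).

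The order of the levels, which FPKM allows as a value per length, differed between the groups. In Ctrl mice Hes1 was followed by Hes6, Hey1 and Rbpj, none of which overlapped with the next. Then came Dtx1, Maml2, Heyl and Nrarp, whose neighbours overlapped, and Hey2 and Hes5. In OEx mice Hes1 was followed by Heyl, then by Hes6, Hey1 and Nrarp, whose neighbours overlapped, then by Rbpj and Maml2, and by Hey2 and Dtx1, which overlapped, and Hes5. The length of Rbpj in these values is the 12750 bases of all its annotated exons together.

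The 6 Hes and Hey genes were also summed in each mouse. Their summed level was 292.3, 291.9 and 290.8 FPKM in OEx mice and 88.5, 85.5 and 89.1 FPKM in Ctrl mice. The SD of this sum over the 3 OEx mice was 0.771 FPKM, although OEx replicate 3 had less Hes1 and more Heyl than the other 2. The sum depends on the scaling between mice, while the shares of its genes within a mouse do not. Hes1 made up 83.2%, 83.4% and 70.3% of the sum in OEx mice and 55.1%, 55.8% and 56.2% in Ctrl mice. Hes6 made up 4.06% ± 0.189 (SD, n = 3) in OEx and 38.5% ± 0.150 (SD, n = 3) in Ctrl mice, and Heyl 12.8% ± 6.38 (SD, n = 3) in OEx and 0.648% ± 0.356 (SD, n = 3) in Ctrl mice. The share of Hey1 was 3.99% ± 1.31 (SD, n = 3) in OEx and 4.99% ± 0.739 (SD, n = 3) in Ctrl mice, within the spread between mice (exact permutation p = 0.3). The difference in the Hes1 share was 23.2 percentage points (exact permutation p = 0.1, the smallest that 3 against 3 mice allow). Counted in reads rather than per length, Hes1 made up 72.1%, 72.2% and 52.7% in OEx mice and 55.2%, 56.0% and 56.2% in Ctrl mice. The groups then overlapped, OEx replicate 3 lay below every Ctrl mouse, and the mean difference was 9.84 percentage points. The exons of Heyl span 5113 bases and those of Hes1 2037, so a Heyl transcript weighs more in reads. The level of Hes1 over that of Hes6 was 19.8, 20.3 and 18.3 in OEx mice and 1.43, 1.45 and 1.46 in Ctrl mice.

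**Figure D3:**
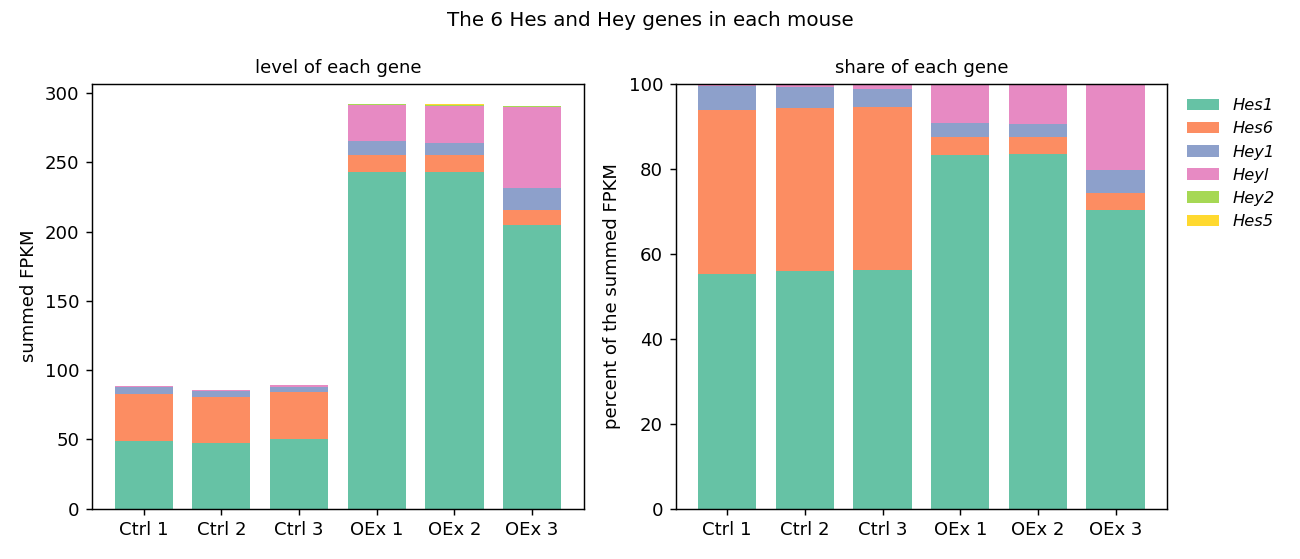
Summed FPKM of Hes1, Hes6, Hey1, Heyl, Hey2 and Hes5 in each mouse (left) and the percent of that sum held by each gene (right), as stacked bars. The sum is 290.8 to 292.3 FPKM in OEx and 85.5 to 89.1 FPKM in Ctrl mice, Hes6 takes 38.5% in Ctrl and 4.06% in OEx mice on average, and Heyl takes 20.1% in OEx replicate 3.

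Within the OEx group, the members did not vary together. Relative to the mean of replicates 1 and 2, replicate 3 had 2.21 times the level of Heyl, 1.96 times that of Nrarp and 1.69 times that of Hey1, beside 1.76 times that of Notch1. In the same mouse Hes1 was at 0.841, Hes6 at 0.920, Rbpj at 0.903 and Dtx1 at 0.213 times the level of the other 2. On the log2(FPKM + 1) scale the difference was 1.11 for Heyl, 0.88 for Nrarp and 0.70 for Hey1, and 0.865%, 1.64% and 2.89% of all tested rows showed a difference at least as high. For Hes1 it was -0.25, and 15.0% of rows lay as low or lower. OEx replicate 3 also differed in cell markers. Its summed fibroblast markers were at 22.2 FPKM and its immune markers at 4.36 FPKM, against 216 to 218 and 18.7 to 19.1 FPKM in OEx replicates 1 and 2. In Ctrl mice these sums were 45.8 to 83.0 and 4.35 to 10.3 FPKM, so for immune markers replicates 1 and 2 were the OEx mice above the Ctrl range. The prostate genes of OEx replicate 3 summed to 5012 FPKM, against 2513 and 2247 FPKM in OEx replicates 1 and 2, and its luminal markers to 2063 against 1631 and 1626 FPKM. The part of all these cells in the difference between OEx mice was not tested.

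Hey1, Hey2, Heyl and Nrarp are also expressed in endothelium, pericytes and smooth muscle, so markers of these cells are given beside them. None of the 7 endothelial markers was called. Their summed level was 17.5 to 19.7 FPKM in OEx and 30.1 to 38.1 FPKM in Ctrl mice. The log2 fold changes of all 7 were below 0, from -0.996 for Tie1, just under the fold criterion, to -0.11 for Tek. At the FDR criterion alone, Tie1, Cdh5, Pecam1, Vwf and Eng were lower (36.5% of all rows), and Kdr and Tek were not. All 5 smooth muscle markers were called lower in OEx mice, where 15.7% of all rows were. Their summed level was 351 to 418 FPKM in OEx mice. In Ctrl mice it was 1062 and 1043 FPKM in replicates 1 and 2, and 2245 FPKM in replicate 3, the mouse with seminal vesicle transcripts. Of the 4 pericyte markers, only Notch3 was called higher, and it is also among the genes used as Notch targets below. Its level made up most of the summed pericyte markers of 23.0 to 31.6 FPKM in OEx mice, so this sum is no measure of pericytes alone. Rgs5 was at 1.83 to 3.94 FPKM in OEx and 0.697 to 1.59 FPKM in Ctrl mice, while Pdgfrb and Cspg4 had log2 fold changes below 0. Their part in the values of Heyl, Hey1 and Nrarp was not tested beyond these levels. The 4 luminal genes Krt8, Krt18, Epcam and Cdh1 did not move together, with log2 fold changes from -1.49 to 0.63. Scaled to their geometric mean, the log2 fold changes were 4.64 for Heyl, 2.82 for Nrarp, 2.41 for Hes1, 1.38 for Hey1 and -1.24 for Hes6, and the calls were those obtained with the deposited values.

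**Figure D4:**
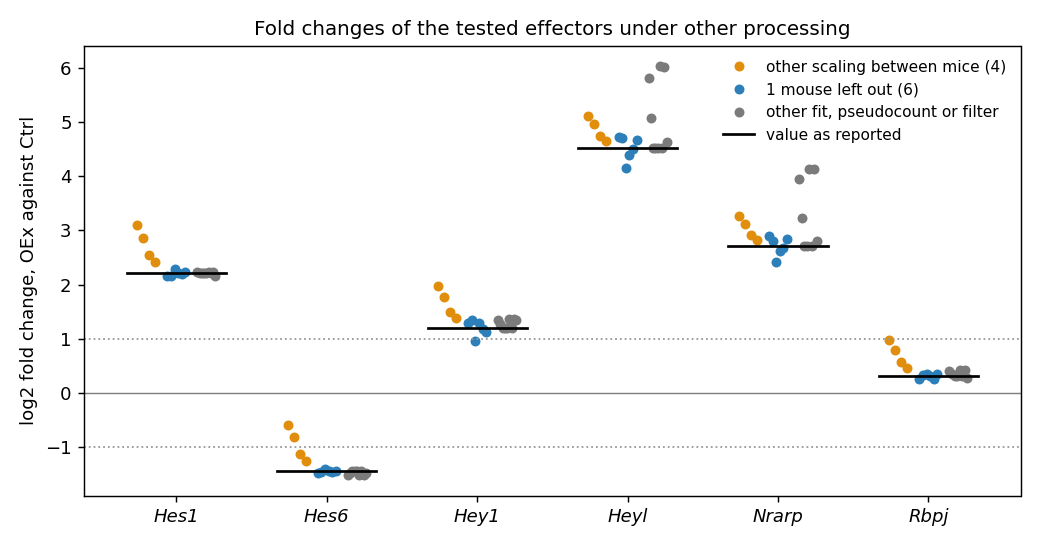
Log2 fold changes of the 6 tested effectors between OEx and Ctrl mice under other processing, with points for other scalings between mice, for fits that leave out 1 mouse and for other fits, pseudocounts or filters, and a black line for the value as reported. All values of a gene lie on the same side of 0, and Hes6 under library totals lies nearest to it among the called members at -0.58.

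For each called member, rows whose mean reached 10 FPKM were ranked by how closely their log2 levels followed it over the 6 mice. The 3 nearest to Hes1 were Luc7l3, Mapk13 and Pnn, with a root mean square difference of 0.079 to 0.105 on the centred log2 scale. Those nearest to Hes6 were Abhd14a, Clpp and Atp6v1g1 (0.031 to 0.035), and those nearest to Hey1 were Abca5, Rell1 and Tmem246 (0.055 to 0.0996). Heyl had no neighbour as close, with Nlrp10, Wfdc8 and Wfdc6b at 0.159 to 0.220, and Nrarp was followed by B4galnt2, Wnk2 and Prps2 at 0.218 to 0.237. With only 2 groups, such likeness mainly reflects the size of the group difference.

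The other nuclear genes of the pathway were examined in lists of 59 genes, of which 58 were found and 51 were tested. Of these, 9 were called higher and 1 lower (12.9% and 15.7% of all rows), and their median log2 fold change was 0.60, beside -0.08 for all rows tested. Among 9 co-activators of the N1ICD complex, none was called. The FDR was under 0.05 for 6 of them with higher levels (30.7% of all rows) and for none with lower levels (36.5% of all rows), with log2 fold changes of 0.90 for Cdk8, a kinase that marks the intracellular domain for turnover, and 0.89 for Ep300, a histone acetyltransferase. Of 6 other Hes-type repressors, 2 were tested and neither was called.

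Of 19 tested co-repressor genes, 2 were called higher, Bcl6 and Cir1, where 12.9% of all rows were. Ctbp1 was the 1 gene called lower, where 15.7% of all rows were. At the FDR criterion alone, 10 were higher (30.7% of all rows) and 3 were lower (36.5% of all rows). Bcl6, a repressor that competes at Notch targets in some cells, was at 9.07 ± 3.13 FPKM (SD, n = 3) in OEx and 2.82 ± 0.684 FPKM (SD, n = 3) in Ctrl mice, and its log2 fold change was 1.37 (limma FDR 0.00215). Cir1, which links RBPJ to histone deacetylases, had 1.25 (limma FDR 4.00e-04). Ctbp1 fell by 1.04 on the log2 scale (limma FDR 1.29e-04), and lost its call without OEx replicate 1, without Ctrl replicate 1 and under each of the 4 other scalings. The largest differences below the fold criterion at an FDR under 0.05 were all higher. They were Kdm5a with 0.97, L3mbtl3 with 0.85, Ncor1 with 0.82, Tle6 with 0.80 and Hdac2 with 0.75. L3mbtl3 had a Ctrl mean of 0.866 FPKM and passed the filter through its OEx values. Rbpjl, the paralog of Rbpj known from exocrine pancreas, had no read in any Ctrl mouse and 243, 295 and 96 reads in OEx mice. It is named after its values were seen, since its mean lay under the filter. Its levels of 2.13, 2.25 and 0.928 FPKM were on average at least 42.3-fold higher than the 0.0418 FPKM that 3 reads make in a Ctrl library.

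Among the Deltex and turnover genes, Dtx4 was called higher. It was at 26.8, 28.2 and 37.3 FPKM in OEx mice and at 2.04, 1.92 and 2.93 FPKM in Ctrl mice, and its log2 fold change was 3.27 with a standard error of 0.170 (limma FDR 3.00e-05). It was the only called gene of the 10 in this list, where 12.9% of all rows were called higher and 15.7% lower. At the FDR criterion alone, 5 genes of the list were higher (30.7% of all rows) and 1 was lower (36.5% of all rows). Dtx3l had a log2 fold change of 0.85 at an FDR under 0.05. Sel1l, a component of the degradation machinery of the endoplasmic reticulum, was at -0.74 (limma FDR 0.0188).

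Of 11 tested genes that are often used as Notch targets in other tissues, 6 were called higher (12.9% of all rows) and none lower (15.7% of all rows). The higher share of all rows grows with other scalings, as given above, to 4713 of 13117 rows with library totals. The 6 genes were Notch3 with a log2 fold change of 3.30, Sox9 with 2.54, Jag1 with 2.27, Ccnd1 with 2.14, Cdkn1a with 1.29 and Bcl2 with 1.25, with limma FDRs from 2.33e-05 to 0.00477. Bcl2 had a Ctrl mean of 0.689 FPKM and passed the filter through its OEx values, so the count only describes the tested genes. Sox9, a transcription factor of progenitor and ductal cells, was at 63.1 ± 5.72 FPKM (SD, n = 3) in OEx and 9.99 ± 1.05 FPKM (SD, n = 3) in Ctrl mice. Cdkn1a, a cell cycle inhibitor, and Ccnd1, a cyclin of the G1 phase, were thus both higher. Cdkn1a lost its call when replicates 1 and 2 of each group were averaged. Gata3, a target in T cells and a regulator of luminal cells, was at -0.95 (limma FDR 3.84e-04), just under the fold criterion.

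**Figure D5:**
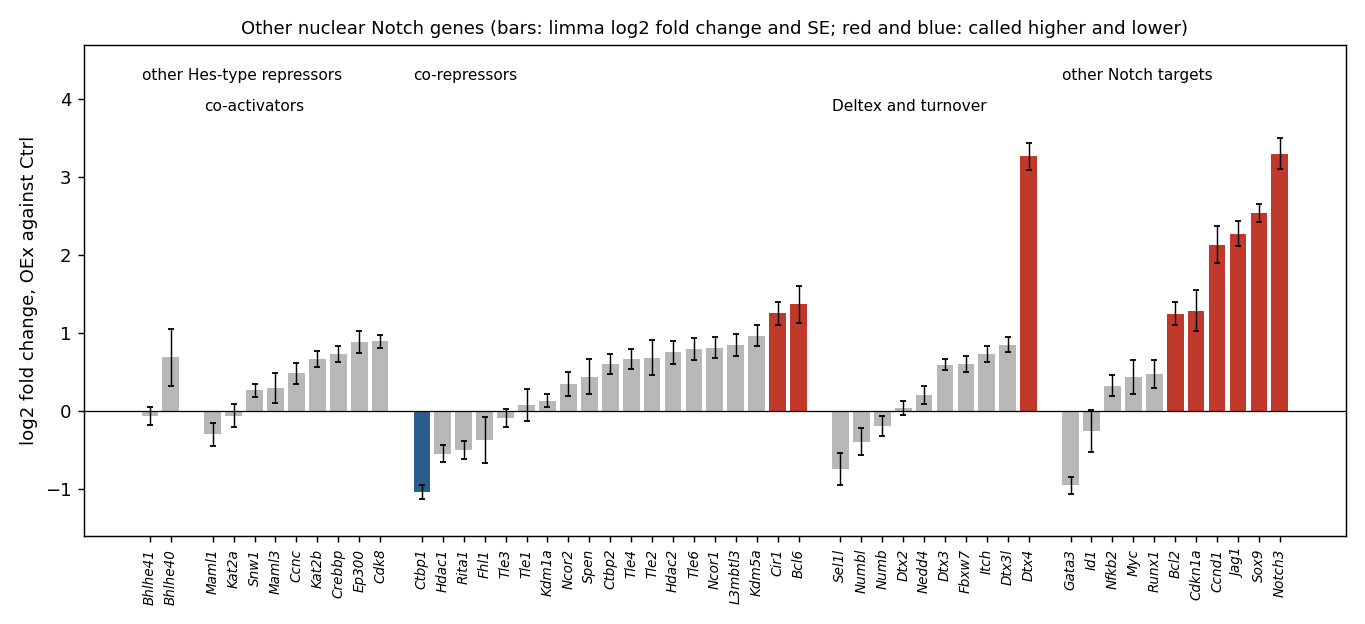
Log2 fold changes between OEx and Ctrl mice of the 51 other nuclear Notch genes that were tested, grouped by list and ordered by value, as bars with the standard error from limma. Genes called higher are red, genes called lower blue and others grey, and Dtx4, at 3.27, and Notch3, at 3.30, are the highest bars.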

How the data were processed

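The authors deposited 1 FPKM table per mouse. Per the labels, HISAT2 2.0.5, featureCounts 1.5.0-p3, StringTie 1.3.3b and CASAVA were named in the submitters' processing notes, and the paper states an in-house pipeline; the genome build and the use of strand in counting are not given in the sources used here. Of the 55076 rows, 544 carry no symbol, of which 280 passed the filter and were kept in the fit. The 53710 rows with a unique symbol in GENCODE M21 (GRCm38) were given exon lengths, and reads were recovered from FPKM, length and the smallest step of each mouse. Between 96.9% and 97.5% of values under 1000 reads came out whole within 0.05 reads. The reads recovered in these rows summed to 14772005 to 18655462 per mouse, which is not the total depth. Floors (3 reads) cover counting error only, while the limma intervals rest on the spread between mice.

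The main comparison used limma (version 3.58.1, R version 4.3.3) with log2(FPKM + 1) as input, eBayes with an intensity trend, and only rows whose mean reached 1 FPKM. Fold changes are on that scale and understate low genes. The limma-voom fits used the library sizes implied by FPKM, so they share the scaling of the deposited values. Calls needed a Benjamini-Hochberg FDR under 0.05 over all rows and a fold change over 2, as the paper states. Exact permutation tests over 20 assignments were two-sided. Promoters came from RefSeq (GRCm38.p6). In simulated data with known changes, 88% of 3-fold and 100% of 6-fold changes were called among 12461 rows tested, with 5 false calls. The simulated mice were independent, with the same dispersion for all genes, no replicate set apart and no difference in scaling between groups. These rates are therefore no measure of false calls in the present data. Python 3.11.15, numpy, pandas and matplotlib made tables and plots.

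Members and lists were chosen with earlier results of these data known. Named genes are the members, Notch1, at most 20 genes of the other nuclear Notch lists with an FDR under 0.05 (largest log2 fold changes first), and for each called member the 3 rows of mean at least 10 FPKM with the smallest root mean square difference in centred log2(FPKM + 1). Rbpjl was added after its values were seen, and marker genes are named from their lists. Other pseudocounts, filters, scalings, fits, the replicate number as a block and fits without each mouse were run. Hes4 is not among the row symbols.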

Additional observations from a re-analysis of the deposited data

How the results depend on the processing

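The number of members called higher was 4, and 3 to 4 when 1 mouse was left out, where Hey1 lost its call without OEx replicate 3. It was 3 with a filter of 5 FPKM, where Nrarp was not tested, and 5 with limma-voom on low counts, added after the data were seen, where Hey2 was called. It was 4 with the replicate number as a block, and Rbpj then had a limma FDR of 0.0814; the block changed no call of a member or of another nuclear Notch gene (9 higher and 1 lower); same-numbered mice correlated at -0.230 on average in their deviations from the group means, against 0.0951 for other pairs, and the labels give the number no meaning. The number called lower was 1, and 0 with library totals and with totals without the 20 highest genes, where Hes6 was at -0.58 and -0.81. Of the other nuclear Notch genes, 9 were called higher, and 15 with a pseudocount of 0.1 FPKM, 34 with library totals, 28 without the 20 highest genes in the totals, 20 with upper quartiles, 14 with luminal genes, 15 with limma-voom and 17 with limma-voom on low counts. Of these genes 1 was called lower, and 0 to 2 without 1 mouse (0 without OEx replicate 1 or Ctrl replicate 1, 2 without Ctrl replicate 3), with 0 under the 4 other scalings (library totals, totals without the 20 highest genes, upper quartile, luminal genes) and 0 with replicates 1 and 2 averaged, an alternative added after the data were seen. The difference in the Hes1 share was 21.04 to 27.6 percentage points without 1 mouse and 9.84 in recovered reads. Over all alternatives run, log2 fold changes ran from 2.16 to 3.10 for Hes1, 4.15 to 6.02 for Heyl, 2.42 to 4.14 for Nrarp, 0.97 to 1.97 for Hey1, -1.51 to -0.58 for Hes6 and 0.26 to 0.98 for Rbpj, each with 1 sign; Nrarp and Rbpj were not tested with a filter of 5 FPKM. The cause of these shifts was not tested. Depth limits Hes5, with at most 3 reads per mouse.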
